A study of Mus musculus with 10 samples.

Results

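The genes described here are the chemokine ligands of mouse skin, the small secreted proteins that steer white blood cells. They were chosen by symbol from a list of 35 ligands that leaves out Ccl20, with no use of their measured values. Of these, 34 had a row among the 17016 genes of the table, and Cxcl15 was not analysed here. Each ligand was placed in 1 of 4 groups: attractants of neutrophils, of monocytes and eosinophils, or of T cells, and homeostatic ligands. Attractants were sorted by the cells they are best known for, and the homeostatic ligands guide cells that home to, stay in or leave the tissue.

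Chemokines are secreted by resident and immune cells, are held on heparan sulphate at cell surfaces, and act through G protein-coupled receptors on the cells that follow them. Inflammatory ligands are made on demand after NF-kappaB or interferon signals, whereas homeostatic ligands are made steadily and guide traffic through skin and lymphatics. In psoriasis and in its mouse models, ligands of CXCR2 are known for recruiting neutrophils and ligands of CCR2 for recruiting monocytes.

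RNA came from whole skin, in 5 vehicle and 5 quinpirole libraries. All of the mice were female BALB/c animals between 10 and 11 weeks old, and both groups received imiquimod, an agonist of the innate receptor TLR7, as a 5% cream on shaved back skin for 5 days. The quinpirole group also had 5 intraperitoneal injections of quinpirole, which activates the dopamine receptor DRD2, over those days; the other group had vehicle. Skin without imiquimod was not analysed here, and the labels do not say that each library came from its own mouse, so the p-values reflect only the spread among these samples, which may be technical.

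Values are normalised CPM, that is, reads of a gene as a part of the reads of its library, after scaling between libraries. The libraries held 6763367 to 8361877 reads assigned to genes, so that 1 read was worth 0.119 to 0.146 CPM. The 10 keratinocyte markers summed to 15422 to 24787 CPM per library, so the defining markers of skin were present. Levels of tissue markers differed between libraries and, on average, between the groups. The 16 skeletal muscle genes listed summed to 1469 to 5781 CPM in vehicle libraries and 3170 to 15291 CPM in quinpirole libraries, highest in quinpirole replicate 4. All 16 measured higher with quinpirole, 11 of them at an unadjusted p under 0.05, against 6.92% of all genes tested. The median log2 fold change of the 16 was 1.17. The 20 hair shaft genes listed summed to values that ranged from 17.9 to 6942 CPM in vehicle and from 22.9 to 6693 CPM in quinpirole libraries, and all 20 measured lower with quinpirole, 0 of them at that level, with a median of -1.68. The smallest limma p-value adjusted over all genes was 0.121 among the muscle genes and 0.530 among the hair shaft genes. In bulk RNA, fewer cells of a type and less RNA per cell cannot be told apart.

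Fold changes compare quinpirole with vehicle on the scale of log2(CPM + 1), which understates the change of low genes. Each is given with its 95% confidence interval from limma, a linear model fitted across all genes, and with a p-value adjusted over all 14548 genes tested by the Benjamini-Hochberg method. Genes at or above 1 CPM in 5 or more libraries were tested, and a gene was called at an adjusted p under 0.05. Of the ligands, 28 were tested.

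No ligand was called, where limma called 3 genes of 14548 in all (0.0206%). The edgeR test on the reads behind the values also called 0 ligands, where it called 0.0344% of all genes. DESeq2 called 2 ligands, Ccl19 and Ccl2, where it called 219 genes in all (1.51%). At an unadjusted limma p under 0.05, 9 ligands measured higher with quinpirole (Pf4, Cxcl9, Cxcl10, Ccl2, Ccl7, Ccl12, Ccl19, Ccl21a and Ccl27a), against 6.92% of all genes tested. One ligand, Ccl3, measured lower at that level, against 4.47% of all genes. The groups did not overlap for 2 ligands, Ccl2 and Ccl19, both higher with quinpirole, against 1.34% of all genes higher and 0.859% lower without overlap. The median log2 fold change of the 28 ligands was 0.14, with 17 higher and 11 lower, beside -0.0021 over all genes tested. Over all 34 ligands, with no filter on low values, the median was 0.26.

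The 9 ligands that measured higher differ in function: Ccl2, Ccl7 and Ccl12 attract monocytes, Cxcl9 and Cxcl10 attract activated T cells, Ccl19 and Ccl21a guide cells to lymphatics, Ccl27a attracts skin-homing T cells and Pf4 is best known from platelets. By group, the median log2 fold change was -0.93 for 4 tested neutrophil attractants, 0.30 for 12 monocyte and eosinophil attractants, 0.48 for 5 T cell attractants and 0.03 for 7 homeostatic ligands. The median of the neutrophil attractants was -0.42 without vehicle replicate 4 and 0.40 with the mean of neutrophil markers as a covariate. With the mean of the skeletal muscle genes as a covariate in limma, 2 ligands measured higher at an unadjusted p under 0.05, Ccl19 at 1.29 and Ccl27a at 0.83, against 3.97% of all genes in that fit. In the same fit 2 measured lower at that level, Cxcl13 at -0.95 and Ccl9 at -0.53, against 4.28% of all genes. Ccl21a was 1.04 there (1.11 in the main fit), Pf4 0.62 (0.80), Cxcl9 0.75 (0.96) and Cxcl10 0.61 (0.73). Each of these lay above an unadjusted p of 0.05 with the covariate. All 16 muscle genes measured higher with quinpirole, so this fit cannot tell muscle content from treatment.

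**Figure D1:**
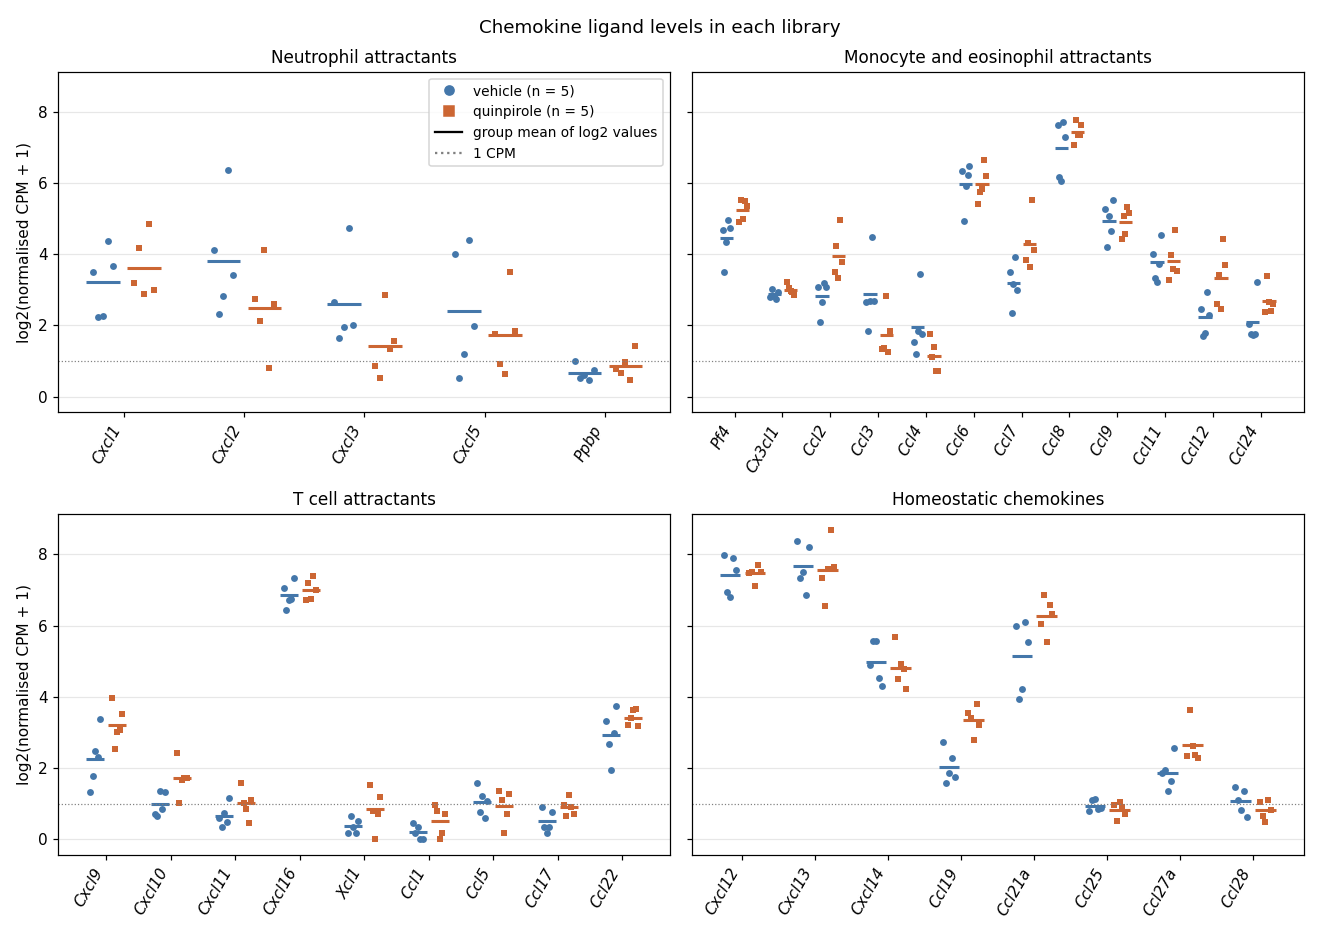
Level of each of the 34 ligands, as log2(CPM + 1) on the vertical axis, in each of 5 vehicle (blue circles) and 5 quinpirole (orange squares) libraries, in 4 panels by role; short bars are group means and the dotted line marks 1 CPM. Ccl2 and Ccl19 are the ligands whose groups do not overlap, and Cxcl2 has its highest point, 82.0 CPM, in vehicle replicate 4.

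Levels between genes were compared per kilobase of the longest protein-coding transcript, as means over the 10 libraries. Ccl8, placed in the monocyte and eosinophil group, was highest, at 306 CPM per kb (SD 105, n = 10). It was followed by the B cell attractant Cxcl13 at 186 (SD 87.2, n = 10). Their ranges over libraries, 129 to 422 and 80.1 to 357 CPM per kb, overlapped. Next came Ccl21a at 69.6 (range 16.5 to 132), Pf4 at 50.7 (17.7 to 75.7), Cxcl16 at 45.8 (31.9 to 62.3), Ccl6 at 45.2 (20.5 to 69.0) and Cxcl12 at 31.8 (19.7 to 44.3) CPM per kb. Each of these ranges overlapped with that of its neighbour in the order. Cxcl1, at 12.1 CPM per kb, was the highest of the neutrophil attractants, and the mucosal ligand Ccl28 was the lowest of the tested ligands at 0.262.

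Among the neutrophil attractants, ligands of CXCR2, Cxcl2, Cxcl3 and Cxcl5 had lower means with quinpirole while Cxcl1 had a higher one, and none of the 4 passed the test. Cxcl1 measured 10.4, 3.70, 3.80, 19.8 and 11.7 CPM in vehicle replicates 1 to 5 and 8.20, 17.2, 6.40, 27.6 and 6.97 CPM in quinpirole replicates 1 to 5. The replicate numbered 4 was highest in both groups, and the groups overlapped across nearly their whole range, with means of 9.89 ± 6.66 and 13.3 ± 9.12 CPM (SD, n = 5 each). The log2 fold change was 0.41 (95% interval -0.63 to 1.45, limma adjusted p = 0.792).

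Cxcl2 measured 16.3, 3.98, 6.15, 82.0 and 9.64 CPM in the vehicle replicates and 5.70, 3.35, 16.3, 0.762 and 5.03 CPM in the quinpirole replicates. Vehicle replicate 4 stood far above the rest, and quinpirole replicate 4, with the highest Cxcl1, had the lowest Cxcl2. The means were 23.6 ± 32.9 and 6.24 ± 5.96 CPM (SD, n = 5 each), with a log2 fold change of -1.33 (-2.93 to 0.27, limma adjusted p = 0.520). Without vehicle replicate 4 the vehicle mean was 9.03 CPM and the log2 fold change -0.69.

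Cxcl3 followed the same libraries, with 25.5 CPM in vehicle replicate 4 against 2.13 to 5.28 CPM in the other 4, and its log2 fold change of -1.17 (adjusted p = 0.469 by limma) was -0.64 without that library. Cxcl5 averaged 7.91 ± 8.92 CPM in vehicle and 3.33 ± 3.99 CPM in quinpirole libraries (SD, n = 5 each), and its log2 fold change was -0.69 (adjusted p = 0.776 by limma), and -0.20 without vehicle replicate 4. Ppbp, the platelet precursor of a CXCR2 ligand, had 23 reads in all vehicle and 33 in all quinpirole libraries, too few to be tested.

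Neutrophil markers were lower on average in the quinpirole libraries. Of 13 tested markers, 12 measured lower, 2 of them at an unadjusted p under 0.05, against 4.47% of all genes. Those were S100a8 and S100a9, which keratinocytes also make. Without them, 0 of 11 tested markers were at that level. The 12 markers left without them summed to 316, 164, 256, 424 and 268 CPM in vehicle replicates 1 to 5 and to 197, 179, 192, 264 and 248 CPM in quinpirole replicates 1 to 5, with the maximum in the library of highest Cxcl2 and Cxcl3. The neutrophil covariate was the mean of all 13 tested markers, S100a8 and S100a9 included. With it, the log2 fold changes were -0.09 for Cxcl2, -0.02 for Cxcl3, 0.81 for Cxcl5 and 1.09 for Cxcl1. Ly6g and Elane were not analysed here.

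The promoters of Cxcl1, Cxcl2 and Cxcl3 are shown because these nearby genes, all between bases 90786103 and 90905938 of mouse chromosome 5 (mm10), differed in the sign of their fold changes. Each line gives the 250 bases before the gene start of RefSeq, which can differ from that of GENCODE, on GRCm38.p6, which is C57BL/6J sequence and not that of BALB/c mice. Capitals mark matches on either strand to a kappaB-like motif, GGNNNTTCC, where N is any base.
Cxcl1, chr5:90890995-90891244, plus strand: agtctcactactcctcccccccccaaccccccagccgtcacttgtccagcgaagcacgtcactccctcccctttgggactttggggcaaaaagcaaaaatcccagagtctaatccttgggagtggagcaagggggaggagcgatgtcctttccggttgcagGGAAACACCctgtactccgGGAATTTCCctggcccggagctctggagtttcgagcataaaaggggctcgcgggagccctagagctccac
Cxcl2, chr5:90903649-90903898, plus strand: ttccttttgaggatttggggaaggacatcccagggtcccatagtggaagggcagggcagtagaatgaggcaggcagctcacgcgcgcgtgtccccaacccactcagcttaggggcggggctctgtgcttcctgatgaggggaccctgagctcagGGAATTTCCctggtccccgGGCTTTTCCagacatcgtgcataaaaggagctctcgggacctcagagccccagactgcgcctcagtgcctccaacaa
Cxcl3, chr5:90785851-90786100, plus strand: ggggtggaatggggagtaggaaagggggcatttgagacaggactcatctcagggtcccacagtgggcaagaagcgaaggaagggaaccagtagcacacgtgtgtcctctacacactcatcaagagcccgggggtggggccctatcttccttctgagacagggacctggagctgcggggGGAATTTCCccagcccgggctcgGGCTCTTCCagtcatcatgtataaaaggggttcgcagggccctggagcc
Each of the 3 held 2 matches, the outermost beginning 96 bases upstream of the gene start, in Cxcl2. A match was present in 11 of the 25 ligands with a window and in 17.6% of all 27025 genes with one (15.7% of 32851 windows). A match to these letters is a description and does not show that a factor binds.

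**Figure D2:**
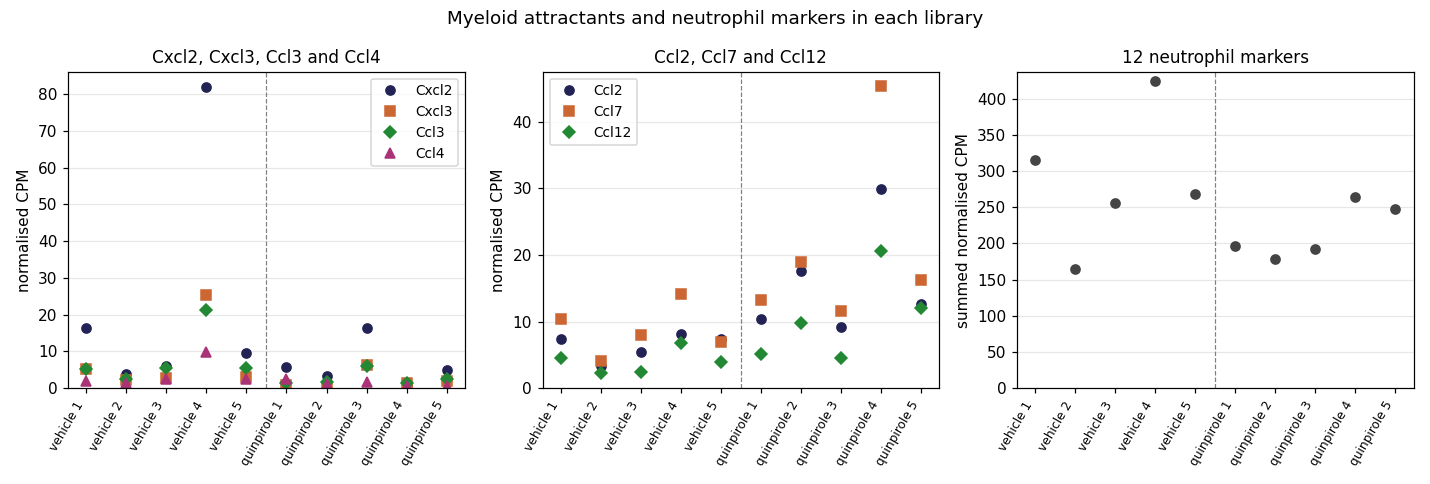
Normalised CPM on linear vertical axes in each of the 10 libraries, vehicle left and quinpirole right of the dashed line: Cxcl2, Cxcl3, Ccl3 and Ccl4 (left), Ccl2, Ccl7 and Ccl12 (middle), and the sum of 12 neutrophil markers without S100a8 and S100a9 (right). Vehicle replicate 4 is highest in the left and right panels, and quinpirole replicate 4 in the middle one.

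Ccl3 and Ccl4, ligands made by activated myeloid and lymphoid cells, shared with Cxcl2 and Cxcl3 a maximum in vehicle replicate 4. Ccl3 measured 5.28, 2.56, 5.50, 21.4 and 5.45 CPM in the vehicle replicates and 1.54, 1.6, 6.13, 1.4 and 2.58 CPM in the quinpirole replicates. The values of 3 quinpirole libraries lay below every vehicle library, and quinpirole replicate 3 lay above 4 of the 5. The means were 8.03 ± 7.56 and 2.65 ± 2.0 CPM (SD, n = 5 each), with a log2 fold change of -1.14 (-2.11 to -0.17, limma adjusted p = 0.358). It was -0.74 without vehicle replicate 4 and -0.32 with the neutrophil marker covariate. Ccl4 had a log2 fold change of -0.82 (-1.64 to 0.01, limma adjusted p = 0.449), and -0.44 without vehicle replicate 4, which held 9.90 CPM against 1.28 to 2.62 CPM in the other vehicle libraries.

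The CCR2 ligands Ccl2, Ccl7 and Ccl12, which draw monocytes out of the blood, had higher means with quinpirole, at ratios of 2.52, 2.41 and 2.61. Ccl2 measured 7.41, 3.27, 5.37, 8.18 and 7.40 CPM in the vehicle replicates and 10.3, 17.6, 9.12, 30.0 and 12.6 CPM in the quinpirole replicates. Every quinpirole library lay above every vehicle library, and quinpirole replicate 4 was the highest. The means were 6.33 ± 2.0 and 15.9 ± 8.5 CPM (SD, n = 5 each), and the log2 fold change was 1.14 (0.47 to 1.80, limma adjusted p = 0.227). It was 0.89 without quinpirole replicate 4. DESeq2 gave 1.33 (adjusted p = 0.0152).

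Ccl7 measured 10.4, 4.13, 7.99, 14.1 and 6.98 CPM in vehicle and 13.2, 18.9, 11.6, 45.4 and 16.3 CPM in quinpirole replicates 1 to 5. Vehicle replicate 4 lay above quinpirole replicates 1 and 3, and quinpirole replicate 4 lay far above all others. With means of 8.73 ± 3.77 and 21.1 ± 13.9 CPM (SD, n = 5 each), the log2 fold change was 1.10 (0.32 to 1.88, limma adjusted p = 0.277), and 0.79 without quinpirole replicate 4.

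Ccl12, the mouse ligand also called MCP-5, measured 4.52, 2.28, 2.49, 6.73 and 3.91 CPM in vehicle and 5.11, 9.75, 4.49, 20.6 and 12 CPM in quinpirole replicates 1 to 5. The same libraries were highest in each group, numbered 4, and the groups overlapped through vehicle replicates 1 and 4. The means were 3.99 ± 1.80 and 10.4 ± 6.51 CPM (SD, n = 5 each), and the log2 fold change was 1.08 (0.28 to 1.88, limma adjusted p = 0.290).

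Quinpirole replicate 4, the highest library for all 3 genes, also held the most skeletal muscle RNA. With the skeletal muscle covariate the log2 fold changes were 0.76 for Ccl2, 0.75 for Ccl7 and 0.69 for Ccl12, each above an unadjusted p of 0.05, and without both libraries numbered 4 they were 0.98, 0.97 and 0.98. Of 14 monocyte and macrophage markers, 11 measured higher with quinpirole, 2 of them at an unadjusted p under 0.05, against 6.92% of all genes. The median log2 fold change of the 14 was 0.29. Their summed levels were 1027 to 1932 CPM in vehicle and 1696 to 2229 CPM in quinpirole libraries. Of 9 tested mast cell markers, 7 measured higher, 5 of them at that level, against 6.92% of all genes. Their median was 0.62, with sums of 94.9 to 202 CPM in vehicle and 145 to 248 CPM in quinpirole libraries. Of 10 endothelial markers, 7 measured lower, 2 of them at that level, against 4.47% of all genes, with a median of -0.30. Their part in the result was not tested.

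Ccl2, Ccl7, Ccl11, Ccl12, Ccl8 and Ccl1 lie in this order within 270 kb, at chr11:82035571-82305690 (mm10), and did not share 1 value. Ccl8 measured 197, 70.6, 65.7, 208 and 156 CPM in vehicle and 134, 216, 161, 160 and 198 CPM in quinpirole replicates 1 to 5. Vehicle replicates 2 and 3 were the lowest, and the other libraries were intermixed. Its means were 139 ± 67.9 and 174 ± 32.9 CPM (SD, n = 5 each), with a log2 fold change of 0.46 (-0.23 to 1.15, limma adjusted p = 0.624). Ccl11, the eosinophil attractant eotaxin that lies between Ccl7 and Ccl12, averaged 13.4 ± 5.60 and 13.9 ± 6.27 CPM (SD, n = 5 each), for a log2 fold change of 0.04 (-0.60 to 0.68, limma adjusted p = 0.974). The sign of that value turned negative with the muscle covariate (-0.46). Ccl1, a ligand of CCR8, had 6 reads in all vehicle and 19 in all quinpirole libraries.

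The other ligands of this group had intervals that included 0. Ccl24, a second eosinophil attractant acting through CCR3, averaged 3.73 ± 2.62 CPM in vehicle and 5.66 ± 2.18 CPM in quinpirole libraries (SD, n = 5 each), for a log2 fold change of 0.57 (-0.08 to 1.22, limma adjusted p = 0.496). Ccl6 (-0.01, interval -0.64 to 0.63) and Ccl9 (-0.04, interval -0.59 to 0.51), ligands of CCR1 that lie beside Ccl3 and Ccl4 on chromosome 11, centred near 0. Cx3cl1, the membrane-bound ligand fractalkine, had the narrowest interval of the tested ligands, with 6.34 ± 0.571 and 7.07 ± 0.798 CPM (SD, n = 5 each) and a log2 fold change of 0.14 (-0.12 to 0.39, limma adjusted p = 0.714).

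Pf4, known as platelet factor 4 and also expressed by tissue macrophages, measured 24.9, 10.4, 19.2, 30.4 and 25.4 CPM in vehicle and 29.1, 44.5, 31.0, 43.7 and 39.6 CPM in quinpirole replicates 1 to 5. In all, 4 quinpirole libraries lay above every vehicle library, and vehicle replicate 2 was the lowest of all. The means were 22.1 ± 7.62 and 37.6 ± 7.15 CPM (SD, n = 5 each), with a log2 fold change of 0.80 (0.27 to 1.33, limma adjusted p = 0.248), and 0.57 to 0.93 when any 1 library was left out. The platelet genes Itga2b, Gp1ba and Itgb3 had log2 fold changes of 0.06, 0.22 and 0.06 (limma adjusted p of 0.937, 0.681 and 0.948). The smallest adjusted p among the 14 monocyte and macrophage markers was 0.349 by limma. The part of either cell type in the level of Pf4 was not tested.

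**Figure D3:**
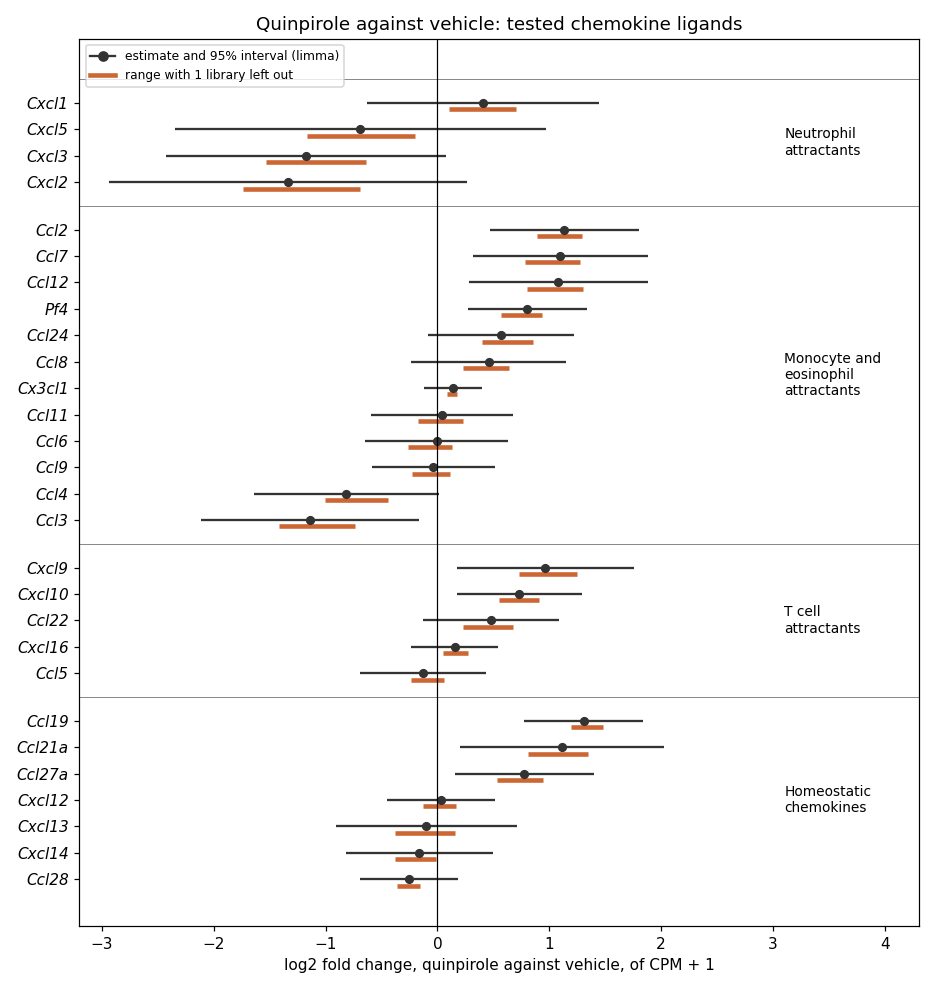
Log2 fold change of CPM + 1, quinpirole against vehicle, on the horizontal axis for the 28 tested ligands by role; points and black lines are limma estimates with 95% intervals, and orange lines the range when each library was left out in turn. Ccl19 at 1.31 is the highest estimate, and the ranges for Cxcl12, Cxcl13, Ccl5, Ccl6, Ccl9 and Ccl11 cross 0.

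Among the T cell attractants, the interferon-induced CXCR3 ligands Cxcl9 and Cxcl10 had higher means with quinpirole, at ratios of 2.03 and 2.39, and neither was called. Cxcl9 measured 1.51, 2.42, 4.58, 3.96 and 9.36 CPM in vehicle and 14.5, 4.80, 7.08, 7.37 and 10.5 CPM in quinpirole replicates 1 to 5. Vehicle replicate 5 lay inside the quinpirole range, and the other 4 vehicle libraries lay below it. The means were 4.37 ± 3.05 and 8.84 ± 3.75 CPM (SD, n = 5 each), with a log2 fold change of 0.96 (0.18 to 1.75, limma adjusted p = 0.335).

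Cxcl10 was near the detection limit, with 38 reads in all vehicle and 96 in all quinpirole libraries. It measured 0.628, 0.569, 1.57, 0.792 and 1.54 CPM in vehicle and 4.4, 1.02, 2.18, 2.29 and 2.32 CPM in quinpirole replicates 1 to 5. Among quinpirole libraries, 4 lay above every vehicle library, and quinpirole replicate 1 was highest for both Cxcl9 and Cxcl10. The log2 fold change was 0.73 (0.18 to 1.29, limma adjusted p = 0.300). The gene passed the filter because all 5 quinpirole libraries, but only 2 vehicle libraries, reached 1 CPM. Cxcl11, the third CXCR3 ligand and neighbour of both genes, had 23 and 42 reads and was not tested.

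The promoters of Cxcl9 and Cxcl10 are shown because both genes had higher means and lie, with Cxcl11, in a block of 44.1 kb. Capitals mark kappaB-like matches, as above, and matches on either strand to an IRF-like motif, GAAANNGAA, resembling the site of interferon regulatory factors.
Cxcl9, chr5:92328080-92328329, minus strand: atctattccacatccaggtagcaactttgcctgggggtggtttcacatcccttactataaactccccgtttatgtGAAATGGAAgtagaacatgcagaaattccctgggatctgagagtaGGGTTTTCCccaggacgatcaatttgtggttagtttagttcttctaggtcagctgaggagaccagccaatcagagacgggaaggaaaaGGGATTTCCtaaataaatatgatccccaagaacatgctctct
Cxcl10, chr5:92348890-92349139, minus strand: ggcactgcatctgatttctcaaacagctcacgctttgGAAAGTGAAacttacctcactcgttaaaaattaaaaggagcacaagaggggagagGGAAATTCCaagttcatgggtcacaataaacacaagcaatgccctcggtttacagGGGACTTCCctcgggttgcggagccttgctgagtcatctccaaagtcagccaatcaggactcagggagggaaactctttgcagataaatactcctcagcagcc
Each held 2 kappaB-like matches and 1 IRF-like match, and no matches overlapped. The IRF-like motif was present in 6 of the 25 ligands with a window and in 8.18% of all genes with one (7.13% of windows).

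Cxcl16, a transmembrane ligand of CXCR6 and the T cell attractant with the highest level per length, measured 132, 86.2, 103, 105 and 160 CPM in vehicle and 104, 146, 106, 168 and 126 CPM in quinpirole replicates 1 to 5. The 2 sets were intermixed, with a log2 fold change of 0.15 (-0.23 to 0.54, limma adjusted p = 0.792) that was -0.15 with the muscle covariate. Ccl22, a CCR4 ligand made mainly by dendritic cells, measured 9.04, 5.41, 2.88, 6.99 and 12.3 CPM in vehicle and 8.20, 9.60, 11.4, 11.7 and 8.0 CPM in quinpirole replicates 1 to 5. All quinpirole libraries lay inside the vehicle range, with a log2 fold change of 0.48 (-0.13 to 1.09, limma adjusted p = 0.547). Ccl5, also called RANTES, averaged 1.14 ± 0.580 and 0.980 ± 0.587 CPM (SD, n = 5 each), for a log2 fold change of -0.13 (-0.69 to 0.44, limma adjusted p = 0.893). The 10 tested markers of T and NK cells, which carry the receptors of these ligands, had a median log2 fold change of 0.01.

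The CCR7 ligands Ccl19 and Ccl21a, which guide dendritic cells and T cells toward lymphatic vessels and lymph nodes, had higher means with quinpirole. Ccl19 measured 5.65, 1.99, 2.62, 3.83 and 2.37 CPM in vehicle and 10.6, 9.60, 5.86, 13 and 8.26 CPM in quinpirole replicates 1 to 5. Every quinpirole library lay above every vehicle library, though quinpirole replicate 3 and vehicle replicate 1 differed by little. The means were 3.29 ± 1.49 and 9.45 ± 2.64 CPM (SD, n = 5 each), a ratio of 2.87, from 125 reads in all vehicle and 364 in all quinpirole libraries. Its log2 fold change, 1.31 (0.77 to 1.84), had the smallest adjusted p of the ligands, 0.119 by limma and 0.124 by edgeR. DESeq2 called it, at 1.51 (adjusted p = 5.60e-04). When any 1 library was left out, the value was 1.19 to 1.48.

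Ccl21a, made by lymphatic endothelium, measured 61.9, 14.4, 17.8, 67.2 and 45.1 CPM in vehicle and 65.1, 115, 45.2, 94.4 and 79.4 CPM in quinpirole replicates 1 to 5. Vehicle replicates 2 and 3 were far below the other libraries, and vehicle replicates 1 and 4 lay inside the quinpirole range. The means were 41.3 ± 24.4 and 79.8 ± 26.7 CPM (SD, n = 5 each), with a log2 fold change of 1.11 (0.20 to 2.03, limma adjusted p = 0.336). It was 0.81 without vehicle replicate 2.

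Lymphatic endothelial markers were higher on average in the same libraries. All 6 markers other than Ccl21a measured higher with quinpirole. At an unadjusted p under 0.05 were 2 of them (Prox1 and Mmrn1, picked after their values were seen), against 6.92% of all genes. The median log2 fold change of the 6 was 0.61. Their sum was 158, 47.9, 79.6, 135 and 100 CPM in vehicle and 132, 147, 121, 229 and 171 CPM in quinpirole replicates 1 to 5, lowest in vehicle replicates 2 and 3, as for Ccl21a. Its part in the values of Ccl19 and Ccl21a was not tested. The receptor itself, Ccr7, averaged 1.70 ± 0.916 and 1.23 ± 0.567 CPM (SD, n = 5 each), for a log2 fold change of -0.25 (-0.82 to 0.32). Ccl19 and Ccl21a lie within 19.5 kb at chr4:42754525-42773993 (mm10), in a region known for near-identical gene copies, and reads divided between copies make both levels uncertain.

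Ccl27a, the keratinocyte ligand of CCR10 known as CTACK, measured 2.64, 2.85, 1.57, 2.11 and 4.89 CPM in vehicle and 4.04, 11.3, 5.17, 4.19 and 3.87 CPM in quinpirole replicates 1 to 5. Quinpirole replicate 2 stood apart, and vehicle replicate 5 lay above 3 quinpirole libraries. The means were 2.81 ± 1.26 and 5.73 ± 3.18 CPM (SD, n = 5 each), with a log2 fold change of 0.78 (0.15 to 1.40, limma adjusted p = 0.325), and 0.53 without quinpirole replicate 2. Its near-identical copy Ccl27b, with a row of its own below the filter, also had its maximum in that library, at 3.06 CPM, so the division of reads between the copies is uncertain.

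The remaining homeostatic ligands had intervals that included 0. Cxcl13 measured 328, 161, 182, 115 and 297 CPM in vehicle and 161, 92.1, 192, 410 and 198 CPM in quinpirole replicates 1 to 5. The highest and the lowest library were both in the quinpirole group, and the log2 fold change was -0.10 (-0.90 to 0.71, limma adjusted p = 0.947), or -0.95 with the muscle covariate. Cxcl12, the stromal ligand of CXCR4, averaged 181 ± 64.3 and 177 ± 25.0 CPM (SD, n = 5 each), for a log2 fold change of 0.03 (-0.45 to 0.52, limma adjusted p = 0.973) whose sign changed with edgeR, DESeq2 and the hair shaft and muscle covariates. Cxcl14, abundant in normal epidermis, stood at -0.16 (-0.82 to 0.50) and Ccl28 at -0.25 (-0.70 to 0.19).

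**Figure D4:**
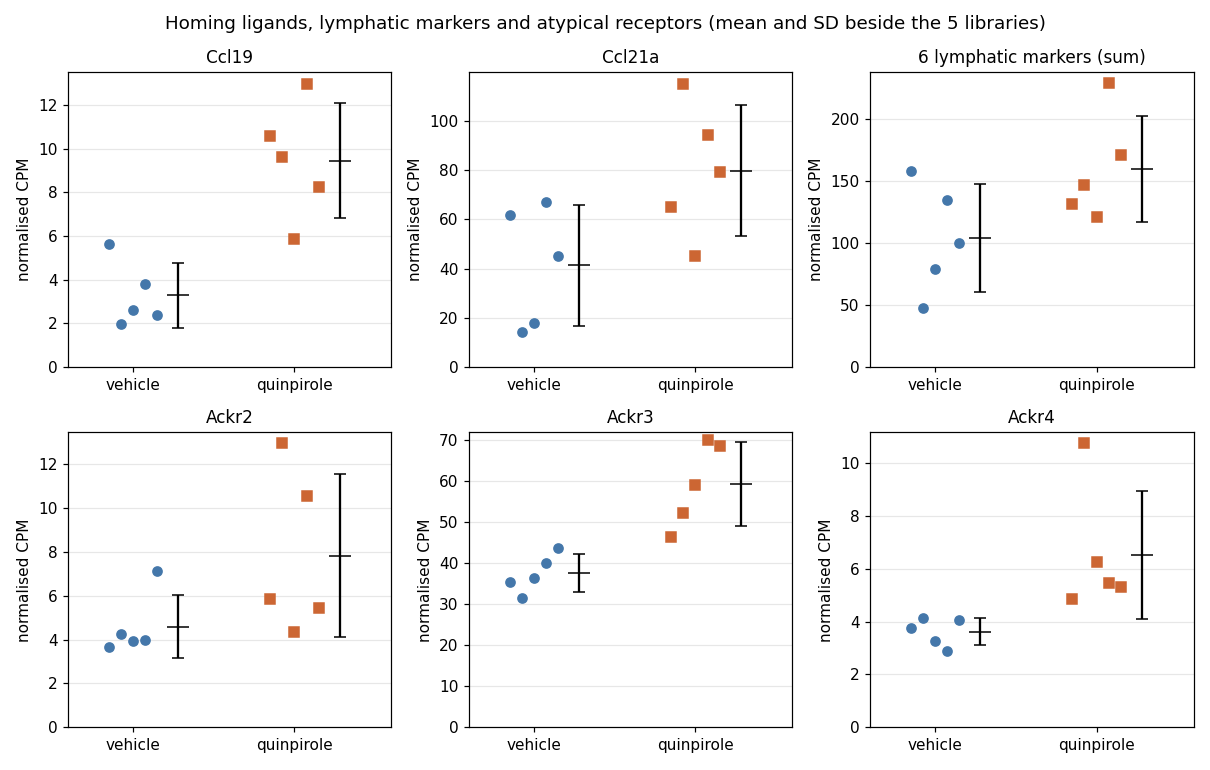
Normalised CPM (linear vertical axes from 0) in 5 vehicle and 5 quinpirole libraries for Ccl19, Ccl21a, the sum of 6 lymphatic markers, Ackr2, Ackr3 and Ackr4; points are libraries, and the cross and bar beside them the mean and SD. The groups do not overlap for Ccl19, Ackr3 and Ackr4.

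The filter on low values left out 6 ligands. An exact two-sided permutation test of the group means gave p = 0.389 for Ppbp, 0.183 for Cxcl11, 0.103 for Xcl1, 0.151 for Ccl1, 0.0714 for Ccl17 and 0.397 for Ccl25. Of the 6, 5 had more reads with quinpirole than with vehicle: Xcl1, the ligand of XCR1 on cross-presenting dendritic cells, had 36 against 11 and Ccl17, a second CCR4 ligand, had 34 against 17. Ccl25, known from gut and thymus, had 31 against 35. None of the 6 had a permutation p under 0.05. With no filter on low values, limma gave Ccl17 a log2 fold change of 0.39 (unadjusted p = 0.0397, adjusted p = 0.431).

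Neighbouring genes had fold changes of both signs. In the block of 6 genes at chr5:90759360-90905938, Pf4 (0.80) lies between Cxcl5 (-0.69) and Cxcl3 (-1.17), and Cxcl1 (0.41) lies between Cxcl3 and Cxcl2 (-1.33). In the block at chr11:83525778-83664683, Ccl5, Ccl9 and Ccl6 lay within 0.13 of 0, while Ccl3 and Ccl4 were at -1.14 and -0.82. These are descriptions of neighbours that share libraries, not a test.

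**Figure D5:**
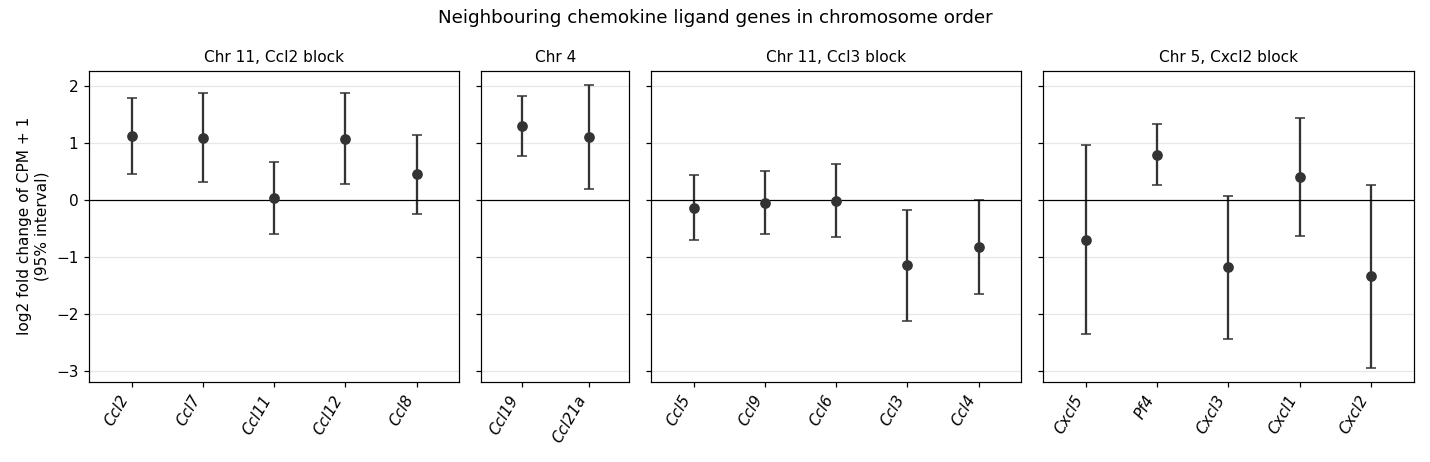
Log2 fold change of CPM + 1 with its 95% interval (vertical axis) for tested ligands in chromosome order within 4 blocks of neighbouring genes. Ccl11 at 0.04 lies between Ccl7 at 1.10 and Ccl12 at 1.08, and Cxcl1 at 0.41 between Cxcl3 and Cxcl2.

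Of 18 signalling receptors of these ligands, 15 were tested, 6 measured higher and 9 lower, and the median log2 fold change was -0.13. The only receptor with an unadjusted p under 0.05 was Cxcr4, the receptor of Cxcl12, against 4.47% of all genes lower. It averaged 12.9 ± 3.43 CPM in vehicle and 8.86 ± 2.40 CPM in quinpirole libraries (SD, n = 5 each). Its log2 fold change was -0.51 (-0.97 to -0.04, limma adjusted p = 0.395). That value was -0.20 with the muscle covariate and also without both libraries numbered 4. For the receptors of the ligands that differed most, the log2 fold change was 0.06 for Ccr2 (interval -0.60 to 0.71), 0.01 for Cxcr2 (-0.43 to 0.44), -0.06 for Cxcr3 (-0.59 to 0.46) and 0.24 for Ccr10 (-0.12 to 0.61). Ccr3, Ccr4 and Cx3cr1 stood at -0.49, -0.23 and 0.16.

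Atypical receptors bind chemokines and take them up without G protein signalling. Of 6 tested, 4 measured higher, and their median log2 fold change was 0.49. Those with an unadjusted p under 0.05, named after their values were seen, were Ackr2, Ackr3 and Ackr4, against 6.92% of all genes higher. The groups did not overlap for Ackr3 and Ackr4, against 1.34% of all genes higher without overlap. Ackr3, which scavenges Cxcl12, measured 35.4, 31.6, 36.4, 40.0 and 43.7 CPM in vehicle and 46.2, 52.2, 59.0, 69.9 and 68.5 CPM in quinpirole replicates 1 to 5. Every quinpirole library lay above every vehicle library, and the log2 fold change was 0.64 (0.36 to 0.92, limma adjusted p = 0.150). DESeq2 called it at 0.66 (adjusted p = 0.00152), and with the muscle covariate it was 0.39.

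Ackr4, which takes up Ccl19, Ccl21a and Ccl25, measured 3.77, 4.13, 3.27, 2.90 and 4.05 CPM in vehicle and 4.87, 10.8, 6.26, 5.46 and 5.29 CPM in quinpirole replicates 1 to 5. The groups did not overlap, with quinpirole replicate 2 the highest, and the log2 fold change was 0.66 (0.24 to 1.08, limma adjusted p = 0.237). Ackr2, a scavenger of inflammatory CC ligands such as Ccl2, averaged 4.58 ± 1.44 and 7.82 ± 3.72 CPM (SD, n = 5 each), for a log2 fold change of 0.59 (0.01 to 1.18, limma adjusted p = 0.433). Ccl20, a CCR6 ligand outside the list of 35, averaged 14.6 ± 5.61 and 20.9 ± 7.21 CPM (SD, n = 5 each), for a log2 fold change of 0.50 (-0.09 to 1.08, limma adjusted p = 0.508).

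The 10 listed enzymes that cut chemokines, or that build or cut the heparan sulphate that holds them, were also tested. Of these, 2 measured higher and 8 lower, with a median log2 fold change of -0.10. The 3 with an unadjusted p under 0.05, named after their values were seen, were the macrophage elastase Mmp12 at 1.08 (limma adjusted p = 0.254), the gelatinase Mmp9 at -0.82 (0.388) and the heparan sulphate sulphotransferase Hs3st1 at -1.29 (0.223). Over all genes, 6.92% were higher and 4.47% lower at that level.

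The extremes fell in few libraries. Over the 28 tested ligands, vehicle replicate 2 held the lowest vehicle value for 16 and vehicle replicate 4 the highest for 12. The same counts over all genes are not reported here. Vehicle replicate 2 also had the lowest marker sums of all libraries for several cell types. These were monocytes and macrophages (1027 CPM), T and NK cells (93.8), dendritic and Langerhans cells (651) and lymphatics without Ccl21a (47.9). Its neutrophil, mast cell and endothelial sums were not the lowest. Quinpirole replicate 4 held the highest quinpirole value for 14, among them Ccl2, Ccl7, Ccl12 and Ccl19, and the lowest for 3, Cxcl2, Ccl3 and Ccl4. Quinpirole replicate 3 was the reverse, lowest for 10 ligands and highest for Cxcl2, Cxcl3 and Ccl3. Without both libraries numbered 4, 9 ligands were higher at an unadjusted p under 0.05, against 6.06% of all genes in that fit, and 0 were lower, against 3.93%.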

How the data were processed

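Total RNA of whole skin was depleted of ribosomal RNA and sequenced from directional MGIEasy libraries, per the labels' protocols. The tools in the submitters' processing notes are edgeR, RSEM 1.3.0, Bowtie2 and Trimmomatic 0.38, and the build is mm10; their roles and order, the annotation and the use of strand in counting are not stated there. The deposited file holds a normalised signal for 17016 genes in 10 libraries. Every value in a column was a whole multiple of the smallest one, within 1e-06 of a read, and the implied scaling equalled edgeR's TMM factor, so the reads behind the values were recovered and the values equal CPM on TMM-scaled library sizes. The lowest genes of the table held 10 reads over all libraries.

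Values were brought to the CPM scale by 1 constant and transformed as log2(CPM + 1). Genes with at least 1 CPM in at least 5 libraries (14548) were tested with limma 3.58.1 in R 4.3.3, with a mean-variance trend, two-sided and without covariates, and Benjamini-Hochberg adjusted p-values were called at 0.05. Low ligands were tested with an exact permutation test over samples. Full values are given for ligands with an unadjusted p under 0.05, those whose groups do not overlap, and the 2 with the highest level per length in each role group; receptors were named where their unadjusted p was under 0.05 or as the main receptor of such a ligand, apart from 1 that is not reported here. Other genes are named with their values where a result turned on them. The members, gene lists and tests were chosen with earlier results of these data known. Positions and transcript lengths came from GENCODE for mm10, and promoters from RefSeq (GRCm38.p6), which matched 25 of the 34 ligands; only the 250 bases before the gene start were searched.

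Alternatives were other pseudocounts (0.1 and 5), filters (none, 5 CPM), quantile scaling, plain CPM, DESeq2 1.42.0 or edgeR 4.0.16 run on recovered reads, a replicate block, marker means as covariates (hair shaft, skeletal muscle, neutrophil), and leaving out each library. Leaving out both libraries numbered 4 was added after seeing the data. The scripts were tested on simulated data. Depth limits low ligands, since 1 read was worth at least 0.119 CPM. The labels name no batch.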

Additional observations from a re-analysis of the deposited data

Results flagged for a closer look

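Of 68 groups of 5 libraries examined (each ligand in each treatment group), 11 held a library that stood apart from the other 4 beyond Dixon's 95% limit. Chance flags about 1 in 20 groups (5%) where values are normally distributed, but CPM were examined here without a log transform. Ligands of the same library are also not independent. In each case the library that stood apart was the highest.

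Vehicle replicate 4 stood apart for the neutrophil attractants Cxcl2, with 82.0 CPM against 3.98 to 16.3 in the other vehicle libraries, and Cxcl3, with 25.5 CPM against 2.13 to 5.28. The same library stood apart for Ccl3, with 21.4 CPM against 2.56 to 5.50, and Ccl4, with 9.90 CPM against 1.28 to 2.62. Quinpirole replicate 3 stood apart in its own group for Cxcl3, with 6.26 CPM against 0.437 to 1.94, and Ccl3, with 6.13 CPM against 1.4 to 2.58. Quinpirole replicate 4 stood apart for Cxcl5, with 10.3 CPM against 0.545 to 2.58, and for the monocyte attractant Ccl7, with 45.4 CPM against 11.6 to 18.9.

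The eosinophil attractant Ccl24 had 1 such library in each group: vehicle replicate 5, with 8.38 CPM against 2.36 to 3.14, and quinpirole replicate 2, with 9.46 CPM against 4.16 to 5.31. Quinpirole replicate 2 also stood apart for the keratinocyte ligand Ccl27a, with 11.3 CPM against 3.87 to 5.17.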

How the results depend on the processing

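For the 28 tested ligands, the 4 atypical receptors Ackr1 to Ackr4 and Cxcr4, 750 log2 fold changes were computed under 23 alternatives. Of these, 710 kept their direction and their side of the threshold, 3 passed it (DESeq2, for Ccl19, Ccl2 and Ackr3) and 37 changed sign. The count of all genes called, 3 in limma, was 5 with a pseudocount of 0.1, with a filter at 5 CPM, with plain CPM and with edgeR, 6 with no filter, 219 with DESeq2, 11 with the hair shaft covariate, and 0 with the muscle covariate, the neutrophil covariate, the replicate block or without both libraries numbered 4. Leaving out 1 library gave 0 to 10, with 10 without vehicle replicate 5. DESeq2 called 2 ligands, and the other alternatives 0.

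Ligands higher at an unadjusted p under 0.05 (9) numbered 2 with the muscle covariate, 10 with no filter (Ccl17 added), 7 with the filter at 5 CPM, and 7 to 11 with 1 library left out. With the neutrophil covariate they were 9, with Ccl8 and Cxcl1 in place of Cxcl9 and Ccl27a. Over all genes tested, in both directions, 1657 were at that level in the main fit and 1312 to 2215 with 1 library left out. The count of all genes was 1199 with the muscle covariate, 1732 with the neutrophil covariate, 1651 with a pseudocount of 0.1, 1687 with edgeR and 1715 with DESeq2. It was 1843 of 17016 with no filter and 1394 of 11967 with the filter at 5 CPM. Ligands lower at that level (1) numbered 3 with a pseudocount of 0.1, 2 with no filter, 4 with edgeR and with DESeq2, 2 with the muscle covariate, 0 with the neutrophil covariate and without both libraries numbered 4, and 0 to 4 with 1 library left out (0 without quinpirole replicate 2 or quinpirole replicate 4, 4 without vehicle replicate 2). With the neutrophil covariate the median log2 fold change was 0.40 for the neutrophil attractants and 0.40 for the homeostatic ligands.

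Values that changed sign are these. With the neutrophil covariate, Cxcl5 was 0.81, Ccl6 0.46, Ccl9 0.0886 and Cxcl13 0.0028. With the hair shaft covariate, Cxcl12 was -0.0793, Cxcl14 0.12, Cxcl16 -0.0174 and Ccl11 -0.25. With the muscle covariate, Cxcl12 was -0.0182, Cxcl14 0.14, Cxcl16 -0.15 and Ccl11 -0.46. Cxcl12 was -0.0394 with edgeR and -0.0347 with DESeq2, and Ccl11 was -0.19 without both libraries numbered 4. With 1 library left out, Cxcl12 ranged from -0.13 to 0.16, Cxcl13 from -0.38 to 0.16, Ccl5 from -0.24 to 0.0582, Ccl6 from -0.27 to 0.13, Ccl9 from -0.22 to 0.11 and Ccl11 from -0.18 to 0.23. The cause was not tested.

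The labels number the libraries 1 to 5 in each group, and same-numbered libraries deviated together with correlations of 0.22, -0.24, 0.19, 0.13 and 0.10, so the numbers were not taken to pair the samples; 1 library of 5 correlated best with its own number. The replicate block called 0 genes and 0 ligands. At 5 libraries per group, with near-identical copies of Ccl19, Ccl21a and Ccl27a, levels of those genes and of ligands under 1 CPM are the least certain.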
